A study of Mus musculus with 170 samples.

Results

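Spleen CD8 T cells sorted as virtual memory cells were compared with spleen CD8 T cells sorted as memory cells, both from young mice. The members were chosen by label alone: the 5 libraries labelled CD8_Virtual_Mem_Y and the 3 labelled CD8_Memory_Y, 8 of the 170 libraries in the table, with every gene compared as virtual memory minus memory. The mice were healthy, on a C57/Bl6 background and aged 2 months, and each library pooled tissue from 5 animals before sorting by flow cytometry. The labels list no transgene, deletion or agent for any of these groups. The same sorts from mice aged 22 to 24 months (5 virtual memory and 3 memory libraries) were the second test of each difference, and 4 libraries of young naive CD8 T cells gave reference levels only. The surface markers used for the sorts were not given in the sources used here, and p-values measure the spread between these pooled libraries.

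Virtual memory T cells are CD8 T cells that look like memory cells without having met a foreign antigen. They arise from naive cells that respond to self ligands and to the cytokine IL-15, and they carry CD44 and the IL-15 receptor chain CD122 at high levels. They are usually told apart from true memory cells by low CD49d, the integrin chain encoded by Itga4, which T cells gain after a foreign antigen has driven them. Eomes, a T-box transcription factor, and IL-4 and type I interferon signals also take part in their formation.

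Levels are CPM values, each gene's count divided by its library's scaled total. Differences are log2 values ± standard error (SE), tested in edgeR by quasi-likelihood, and p-values were adjusted over all genes tested by the Benjamini-Hochberg procedure. A gene passed the test at an adjusted p under 0.05. Counting at transcript ends makes levels comparable between libraries for 1 gene, and no level was compared between genes. Of 11190 genes tested, 1468 were higher and 1920 lower in virtual memory libraries, which is 30.3% of the genes in either direction, 13.1% higher and 17.2% lower. The median difference over all genes tested was 0.02. Total counts ran from 1433143 to 6821886 in the virtual memory libraries and from 1301782 to 1668083 in the memory libraries. Spearman correlations of levels were 0.92 to 0.95 between replicates of a group and 0.72 to 0.79 between the groups.

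The 3 young memory libraries stood apart in the transcripts that define a CD8 T cell. Their summed level of Cd3d, Cd3e, Cd3g, Cd8a and Cd8b1, which encode the CD3 chains and both chains of the CD8 co-receptor, ran from 1195 to 2072 CPM, against 5000 to 6482 CPM in the virtual memory libraries. Cd3e was 837, 845, 627, 604 and 469 CPM in the virtual memory replicates and 148, 112 and 238 CPM in the memory replicates (log2 2.04 ± 0.27, adjusted p = 2.66e-05). Cd8b1 was 1739 ± 396 CPM (SD, n = 5) against 385 ± 110 CPM (SD, n = 3). All 5 genes of that list were higher in virtual memory libraries, and none of the 5 passed the test in old mice. In bulk libraries, fewer cells of a type and less RNA per cell cannot be told apart.

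Transcripts of other blood cells filled more of the young memory libraries. All 7 tested erythroid markers were lower in virtual memory libraries, with sums of 585 to 959 CPM against 18164 to 38870 CPM. All 9 macrophage and monocyte markers were lower (816 to 992 against 4348 to 11804 CPM), as were all 8 MHC class II genes (91.3 to 298 against 3629 to 5225 CPM), all 6 tested NK cell markers (204 to 239 against 1092 to 2514 CPM), all 4 tested plasma cell markers (41.2 to 87.7 against 1084 to 5239 CPM) and 7 of 10 dendritic cell markers (63.9 to 147 against 278 to 391 CPM). Clec9a, a receptor of cross-presenting dendritic cells, had no count in any young virtual memory library. Immunoglobulin genes held 1.15 to 4.93% of the counts in memory libraries and 0.0663 to 0.105% in virtual memory libraries. B cell markers did not separate the groups (50.2 to 126 against 67.2 to 150 CPM, 0 of 6 past the test).

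Neutrophil transcripts ran the other way. Of 9 neutrophil markers tested, 7 were higher in virtual memory libraries and none lower, with sums of 8585 to 10451 CPM against 547 to 871 CPM. S100a8, a subunit of the neutrophil protein calprotectin, was 3628, 4090, 3664, 4412 and 3870 CPM in the virtual memory replicates and 334, 329 and 177 CPM in the memory replicates. The 5 values lie within a narrow band, and young naive libraries held only 13.5 to 41.4 CPM. In old mice the sorts overlapped, with 3819 to 6045 CPM of S100a8 in virtual memory libraries and 249, 5912 and 513 CPM in memory replicates 1, 2 and 3 (adjusted p = 0.527). Neutrophil sums there were 9077 to 15173 CPM in virtual memory and 729 to 17360 CPM in memory libraries, the highest being memory replicate 2. The part of these other-cell transcripts in the differences below was not tested, except where a value bears on it.

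**Figure D1:**
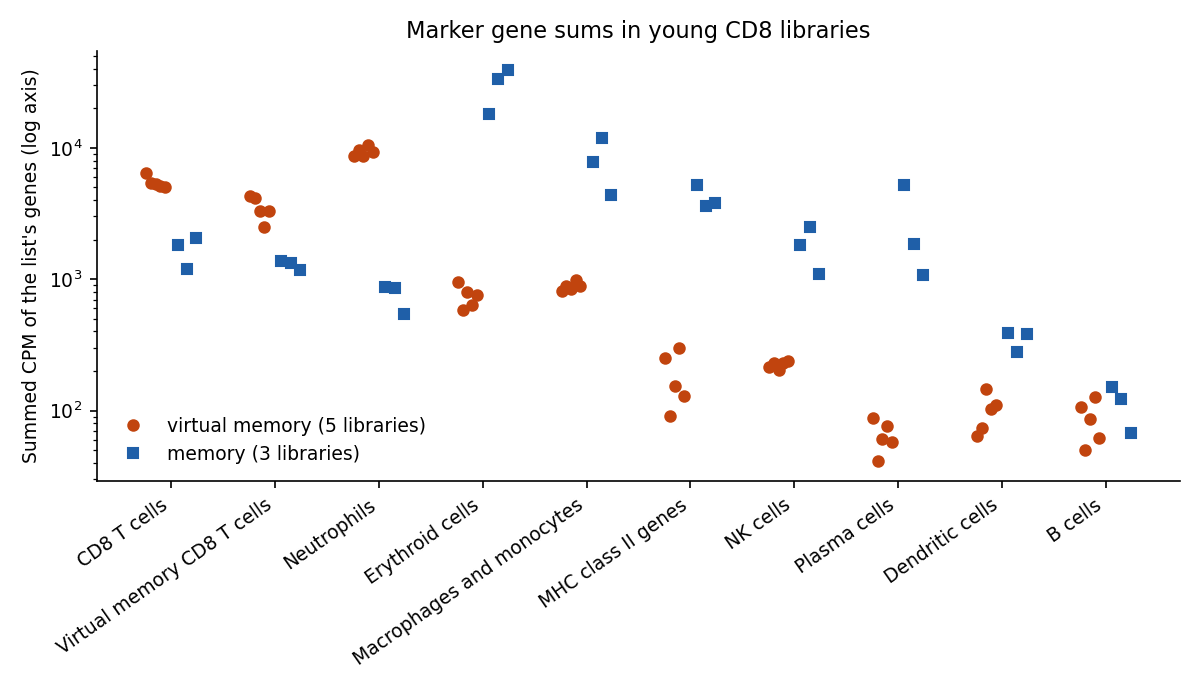
Summed CPM (log axis) of fixed marker lists in each young library; circles are the 5 virtual memory libraries and squares the 3 memory libraries. CD8 T cell and neutrophil sums are higher in every virtual memory library, erythroid, macrophage, MHC class II, NK and plasma cell sums are higher in every memory library, and B cell sums overlap.

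Because the T cell transcripts differed, every contrast was also fitted with libraries scaled to the summed counts of Cd3d, Cd3e, Cd3g, Cd8a and Cd8b1, an alternative chosen after the data were seen. On this scale each young difference moved down by a median of 1.75 log2 units (median shift -1.75), and 9678 genes (86.5%) passed the test, 43 (0.384%) higher and 9635 (86.1%) lower in virtual memory libraries. Differences are therefore given relative to the median gene, and a gene that is higher by less than about that shift lies at or below 0 when T cell transcripts set the scale. In old mice the T cell sums of both sorts were nearer (3821 to 5850 CPM in virtual memory and 2371 to 4772 CPM in memory libraries), so the old contrast gives the same comparison with less of this gap. It called fewer genes, with 196 genes (1.76%) higher and 288 (2.59%) lower of 11107 tested, or 484 genes (4.36%) in all. Without old virtual memory replicate 4 and old memory replicate 2, which held 6.31% and 14.7% immunoglobulin counts, it called 812 genes (7.17%), 313 (2.76%) higher and 499 (4.41%) lower. Leaving out single old libraries took the count from 168 (without memory replicate 3) to 1149 (without virtual memory replicate 4).

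Among the genes that define the populations, Itga4 separated the sorts most widely. It was 40.9, 45.7, 54.9, 80.0 and 44.5 CPM in virtual memory replicates 1 to 5 and 330, 394 and 356 CPM in memory replicates 2 to 4. The groups do not overlap, and the difference was -2.74 ± 0.22 (adjusted p = 1.67e-07). Young naive libraries held 75.4 to 169 CPM, above 4 of the 5 virtual memory libraries. In old mice the values were 22.6, 5.21, 31.7, 120 and 9.55 CPM in virtual memory replicates and 397, 285 and 466 CPM in memory replicates (log2 -3.37, adjusted p = 0.0190). The old virtual memory replicate at 120 CPM is replicate 4. Scaling to T cell transcripts, which moved young differences down by a median of 1.75, gave -4.51. Leaving out old virtual memory replicate 1 or 3 or old memory replicate 3 took the old adjusted p above 0.05, to at most 0.0757.

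Cd44, the hyaluronan receptor that marks activated and memory T cells, was higher in both sorts than in naive libraries. It ran from 112 to 237 CPM in virtual memory libraries, from 294 to 446 CPM in memory libraries and from 6.63 to 13.5 CPM in young naive libraries. Virtual memory libraries were lower in young mice (log2 -1.11 ± 0.22, adjusted p = 0.00114), and in old mice the difference was -0.08 (adjusted p = 0.877). The age difference itself did not pass the test (interaction adjusted p = 0.0914).

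All 4 genes of the virtual memory list (Il2rb, Eomes, Cxcr3 and Ly6c2) were higher in young virtual memory libraries by library scaling, with a median of 1.09, and all 4 turned below 0 when scaled to T cell transcripts (-0.80 for Il2rb, -0.85 for Eomes, -0.44 for Cxcr3 and -0.17 for Ly6c2). Il2rb, which encodes CD122, was 540, 622, 499, 390 and 562 CPM in virtual memory replicates and 293, 213 and 342 CPM in memory replicates (0.90 ± 0.20, adjusted p = 0.00292). In old mice it was again higher, by 0.95 (adjusted p = 0.0435). Ly6c2, a surface marker of IL-15 and interferon exposed T cells, was 3238, 3050, 2391, 1894 and 2422 CPM against 888, 994 and 587 CPM (1.67 ± 0.23, adjusted p = 3.61e-05) and was 2.57 higher in old mice (adjusted p = 0.00443). Cxcr3, a chemokine receptor of memory and effector cells, was 1.28 ± 0.35 higher (adjusted p = 0.0115), with values from 81.5 to 307 CPM against 47.8 to 100 CPM that overlap. Without memory replicate 3 its adjusted p was 0.0750.

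By library scaling, Eomes went different ways at the 2 ages. In young mice it was 187, 261, 213, 121 and 201 CPM in virtual memory replicates and 107, 78.7 and 149 CPM in memory replicates (0.83 ± 0.25, adjusted p = 0.0214), a call lost without memory replicate 2 or 3 (adjusted p up to 0.128). In old mice the memory replicates held 497, 264 and 407 CPM and the virtual memory replicates 204 to 276 CPM (-0.73, adjusted p = 0.0769). Scaled to T cell transcripts, the young difference was -0.85 (adjusted p = 0.00760), below 0 like the old one. The difference between the ages was -1.59 (interaction adjusted p = 0.0264), a call lost without any 1 of 4 memory libraries, young replicates 2 and 3 and old replicates 1 and 3. Virtual memory replicate 4 had the lowest Il2rb, Eomes, Cxcr3, Ly6c2, Cd44 and Gzmm and the highest Itga4 of the 5 young virtual memory libraries, a set of genes put together after their values were seen.

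**Figure D2:**
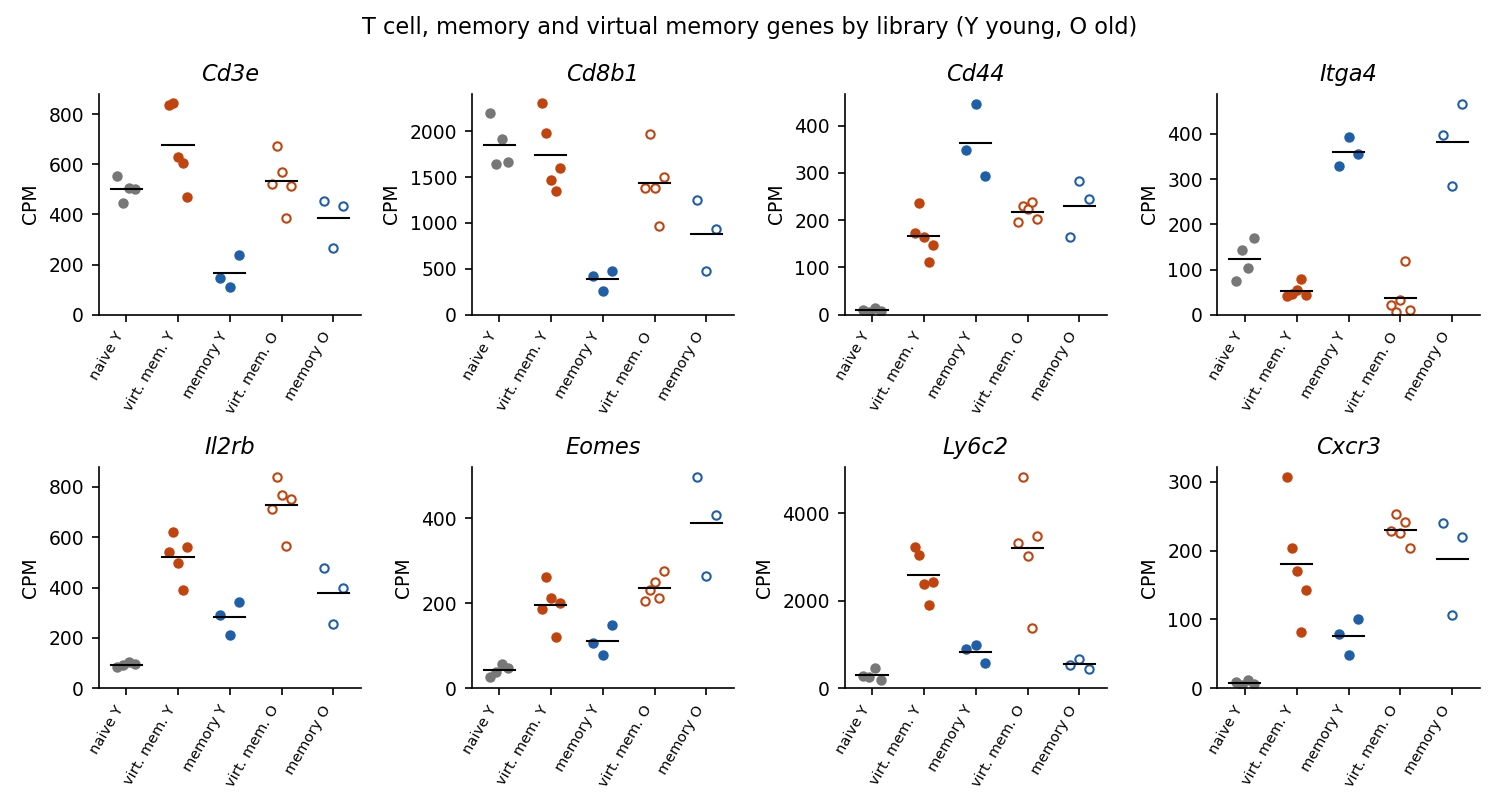
CPM of 8 genes in each library of young naive, young virtual memory, young memory, old virtual memory and old memory CD8 T cells; filled points are young, open points old, and black lines are group means. Itga4 is lower in every virtual memory library than in any memory library at both ages. The mean Cd3e and Cd8b1 levels of young memory libraries lie below those of the other groups. Eomes is higher in virtual memory than in memory libraries on average in young mice only.

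Only 11 genes were higher in virtual memory libraries by library scaling in young mice, by library scaling in old mice, and in young mice scaled to T cell transcripts. They were Gzmm, Cd163l1, 5830411N06Rik, Klk8, Dmrta1, Dhrs9, Cstdc4, Cxcr2, Il1f9, Ceacam10 and Mmp8, a set chosen after seeing their values. Mmp8 encodes neutrophil collagenase and Cxcr2 is the main chemokine receptor of neutrophils, and Mmp8 stood at 209 to 245 CPM against 11.9 to 33.0 CPM beside the neutrophil sums given above. The part of neutrophils in the other genes of this set, Il1f9, Ceacam10, Cstdc4 and Dhrs9 among them, was not tested. Gzmm, Cd163l1, 5830411N06Rik, Klk8 and Dmrta1 are considered next.

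Gzmm encodes granzyme M, a serine protease of cytotoxic granules in NK cells and innate-like T cells. It was 181, 149, 128, 111 and 145 CPM in virtual memory replicates and 9.95, 16.8 and 17.9 CPM in memory replicates. The groups do not overlap, and young naive libraries held at most 1.24 CPM. The difference was 3.28 ± 0.27 (adjusted p = 1.89e-07), 1.52 when scaled to T cell transcripts, and 3.40 in old mice (adjusted p = 0.00407). Old virtual memory libraries ran from 143 to 633 CPM and old memory libraries from 25.0 to 59.7 CPM. NK cell marker sums were lower in every young virtual memory library than in any young memory library, as given above. Those sums include Fcer1g, an adaptor of NK and myeloid cells, at 565 to 1246 CPM in young memory libraries.

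Cd163l1 and 5830411N06Rik both encode members of the scavenger receptor cysteine-rich family, known in mice from gamma-delta T cells. They are neighbours on chromosome 7 of GRCm38, on the same strand, at 140218267 to 140231145 and 140247284 to 140300736, with no other protein-coding gene between them. 5830411N06Rik falls outside the naming rule because its name is a clone name, and it is named after its values were seen. Cd163l1 was 12.1, 21.7, 38.4, 21.7 and 31.2 CPM in virtual memory replicates and 1.17, 1.35 and 0 CPM in memory replicates (4.75 ± 0.65, adjusted p = 3.93e-05). 5830411N06Rik was 21.9, 30.7, 22.9, 19.8 and 16.1 CPM against 0.585, 0.673 and 0 CPM (5.51 ± 0.60, adjusted p = 4.17e-06). Neither gene passed 1.35 CPM in a young memory library, and young naive libraries held at most 2.90 CPM of Cd163l1 and 3.23 CPM of 5830411N06Rik. In old virtual memory libraries they varied more, from 8.95 to 112 CPM for Cd163l1 and from 3.40 to 82.4 CPM for 5830411N06Rik, and the old memory libraries held at most 0.569 CPM. In young mice Trdc, the constant region of the delta chain of the T cell receptor, was not higher beside them (3.00 to 12.3 CPM in virtual memory and 7.46 to 35.7 CPM in memory libraries, log2 -1.19, adjusted p = 0.0636). The gamma-delta list has 6 genes, of which 3 were counted, Trdc and Cd163l1 among them. In old mice the list summed to 10.7 to 123 CPM in virtual memory and 1.14 to 10.4 CPM in memory libraries. In old virtual memory replicates 1 to 5 the sums were 97.3, 49.5, 123, 17.0 and 10.7 CPM. Cd163l1 itself made up 59.0, 35.8, 112, 10.9 and 8.95 CPM of them, so the sums are not separate from it. Whether gamma-delta T cells carried these transcripts was not tested at either age.

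Promoter windows are shown for these 3 genes, which separate virtual memory from both memory and naive libraries. Others of the 11 genes, Dmrta1 among them, do so too and are not shown. Each window is the 250 bases before a RefSeq start in GRCm38.p6, on the plus strand. Capitals mark a match to GGTGTGA, the half-site of T-box factors such as EOMES and T-bet, searched on both strands along with the Runx motif TGTGGTT.
Gzmm (chr10:79693576-79693825, the downstream of its 2 starts): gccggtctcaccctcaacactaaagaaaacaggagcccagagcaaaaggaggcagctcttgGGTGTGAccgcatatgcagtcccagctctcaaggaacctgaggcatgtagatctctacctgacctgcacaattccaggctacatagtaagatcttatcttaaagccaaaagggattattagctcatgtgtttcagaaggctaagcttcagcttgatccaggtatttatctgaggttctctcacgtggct
Cd163l1 (chr7:140218017-140218266): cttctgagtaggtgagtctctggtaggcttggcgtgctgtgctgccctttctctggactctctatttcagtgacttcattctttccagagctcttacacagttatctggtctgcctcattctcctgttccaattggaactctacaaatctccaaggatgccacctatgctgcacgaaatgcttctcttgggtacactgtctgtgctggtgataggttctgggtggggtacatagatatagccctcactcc
5830411N06Rik (chr7:140247051-140247300, the most upstream of its 3 starts): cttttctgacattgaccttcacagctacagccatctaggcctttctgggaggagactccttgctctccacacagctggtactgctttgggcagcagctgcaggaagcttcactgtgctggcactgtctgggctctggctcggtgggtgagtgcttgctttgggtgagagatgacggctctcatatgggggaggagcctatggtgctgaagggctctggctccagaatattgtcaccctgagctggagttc
In Gzmm the match begins 189 bases before the start shown, and the window of its upstream start (chr10:79688770-79689019) holds none. Thus the start shown for Gzmm is the one with a match. The windows of the other 2 starts of 5830411N06Rik overlap the one shown and hold none either. Over the 15 windows of the 11 genes above, all 11 matched to RefSeq, GGTGTGA was found in 2 (Gzmm and Dhrs9) and TGTGGTT in 0. Taking only the first window of each gene, GGTGTGA was found in 1 of the 11 genes. Of 32851 mouse promoter windows of the same length, 3.33% hold the first motif and 4.40% the second.

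Klk8, a kallikrein-related serine protease, was 400, 311, 332, 316 and 282 CPM in virtual memory replicates against 74.9, 53.1 and 63.4 CPM (2.37 ± 0.20, adjusted p = 3.00e-07; 0.64 on the T cell scale). Young naive libraries held 354, 290, 382 and 208 CPM, of which the first 3 lie within the range of the virtual memory libraries and all 4 above the memory libraries. In old mice Klk8 was 1.45 higher (adjusted p = 0.0379). Dmrta1, a DM-domain transcription factor gene, was 15.6, 38.9, 23.8, 21.7 and 24.1 CPM against 2.93, 3.36 and 4.48 CPM (2.77 ± 0.43, adjusted p = 0.000124) and had no count in any young naive library.

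Genes of naive and quiescent T cells were higher in virtual memory libraries. Of 15 in the list, 11 were higher and none lower, with a median of 1.09 against 0.02 over all genes. On the T cell scale, none was higher and 9 were lower, beside 0.384% higher and 86.1% lower over all genes. In old mice 4 were higher and 1 lower, beside 1.76% and 2.59% over all genes. Satb1, a chromatin organiser of T cells, was 513, 934, 831, 770 and 468 CPM against 146, 175 and 204 CPM (2.02 ± 0.25, adjusted p = 1.80e-05) and was 2.88 higher in old mice (adjusted p = 0.000794). Il7r, the IL-7 receptor chain on which resting T cells depend for survival, was 1180, 1545, 986, 728 and 1307 CPM against 204, 168 and 407 CPM (2.16 ± 0.30, adjusted p = 5.14e-05). Lef1, a Wnt pathway transcription factor of naive and stem-like T cells, was 2.00 ± 0.25 higher (adjusted p = 1.53e-05) and 1.08 higher in old mice (adjusted p = 0.0415). On the T cell scale these 3 differences were 0.27, 0.50 and 0.29, all short of the test.

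Of 15 chemokine and lipid homing receptors, 8 were higher and 4 lower (median 0.85). On the T cell scale none was higher and 9 were lower, beside 86.1% lower over all genes. S1pr1, the sphingosine-phosphate receptor for exit from lymphoid organs, was 1.53 ± 0.25 higher (adjusted p = 0.000203). Cx3cr1, the fractalkine receptor of terminal effector cells and monocytes, was 0.473 to 10.1 CPM against 83.6 to 198 CPM (-5.79 ± 0.61, adjusted p = 3.31e-06), beside the macrophage marker sums above. It was -2.34 in old mice as well (adjusted p = 0.00831).

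In the IL-2, IL-7 and IL-15 receptor pathway, 6 of 15 genes were higher and 2 lower (median 0.26). On the T cell scale none was higher and 12 were lower, beside 86.1% lower over all genes. Bcl2, the survival protein that these cytokines sustain, was 507, 784, 582, 474 and 531 CPM against 145, 200 and 174 CPM (1.75 ± 0.21, adjusted p = 1.21e-05; -0.04 on the T cell scale). Socs1, a feedback inhibitor of cytokine receptors, was 1.49 ± 0.24 higher (-0.26 on the T cell scale). Socs2, of the same family, was -2.53 ± 0.32 (adjusted p = 1.91e-05), at 3.74 to 9.15 CPM against 32.8 to 38.8 CPM. Among cytokine receptors of the IL-12, IL-18 and IL-1 families, 5 of 17 were higher and 3 lower (median 0.14). Scaled to T cell transcripts, none was higher and 14 were lower, beside 86.1% lower over all genes. Il18r1, through which IL-18 drives interferon gamma without antigen, was 116 to 205 CPM against 43.3 to 63.4 CPM (1.44 ± 0.25, adjusted p = 0.000306), and 1.79 higher in old mice (adjusted p = 0.0112). Its young difference was -0.29 on the T cell scale.

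Transcription factors of effector and memory cells were lower more often, with 10 of 19 lower and 4 higher (median -1.08). Runx3, which holds the CD8 lineage, was 1.39 ± 0.25 higher (adjusted p = 0.000452) and Gata3 1.30 ± 0.22 higher (adjusted p = 0.000259), and both were below 0 on the T cell scale (-0.36 and -0.49). Tbx21, which encodes T-bet, was 37.4 to 147 CPM against 34.98 to 51.5 CPM and missed the test (0.86 ± 0.34, adjusted p = 0.0704). Zeb2, a repressor of terminal effector cells that macrophages and dendritic cells also use, was 4.63, 2.25, 4.12, 3.67 and 2.84 CPM against 183, 266 and 140 CPM (-5.69 ± 0.28, adjusted p = 1.64e-09). In old mice its difference was -1.53 (adjusted p = 0.0562), and the gap between ages passed the test (interaction adjusted p = 0.000733). Irf8, a factor of dendritic cells and effector T cells, was 9.15 to 22.8 CPM against 235 to 304 CPM (-4.09 ± 0.24, adjusted p = 9.77e-09) and -3.00 in old mice (adjusted p = 0.00134). Macrophage sums in old memory libraries were 519 to 3579 CPM against 893 to 2265 CPM in old virtual memory libraries, while MHC class II sums stayed higher in every old memory library (3620 to 6866 against 88.1 to 1386 CPM).

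Cytotoxic effector genes split. Of 15, 5 were higher (Gzmm among them) and 6 lower (median -0.32). On the T cell scale Gzmm alone was higher and 11 were lower, beside 86.1% lower over all genes. Cst7 and Ctsw, a cystatin and a cathepsin of cytotoxic granules, were 1.66 ± 0.22 and 1.44 ± 0.21 higher, and Nkg7, a granule membrane protein, 0.81 ± 0.18 higher (-0.07, -0.34 and -0.94 on the T cell scale). Gzma, the granzyme of NK cells and effector T cells, was 21.2, 74.9, 48.5, 16.5 and 35.9 CPM in virtual memory replicates and 1016, 1057 and 340 CPM in memory replicates (-4.39 ± 0.43, adjusted p = 1.63e-06). Gzmk was 0.946 to 3.20 CPM against 22.9 to 41.8 CPM (-3.92 ± 0.41, adjusted p = 3.23e-06). Old virtual memory libraries held 5.97 to 85.7 CPM of Gzmk and old memory libraries 214 to 606 CPM (-3.48, adjusted p = 0.00891). Gzmb, the granzyme that cleaves caspases, was 7.34, 13.5, 12.3, 6.98 and 3.31 CPM against 63.8, 78.7 and 53.0 CPM (-2.94 ± 0.34, adjusted p = 7.54e-06). Its old difference was 0.51 (adjusted p = 0.516), and the gap between ages was 3.42 (interaction adjusted p = 0.00468). Thus memory libraries held more granzyme A, B and K transcript and virtual memory libraries more granzyme M in young mice, and K and M differed the same way in old mice.

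**Figure D3:**
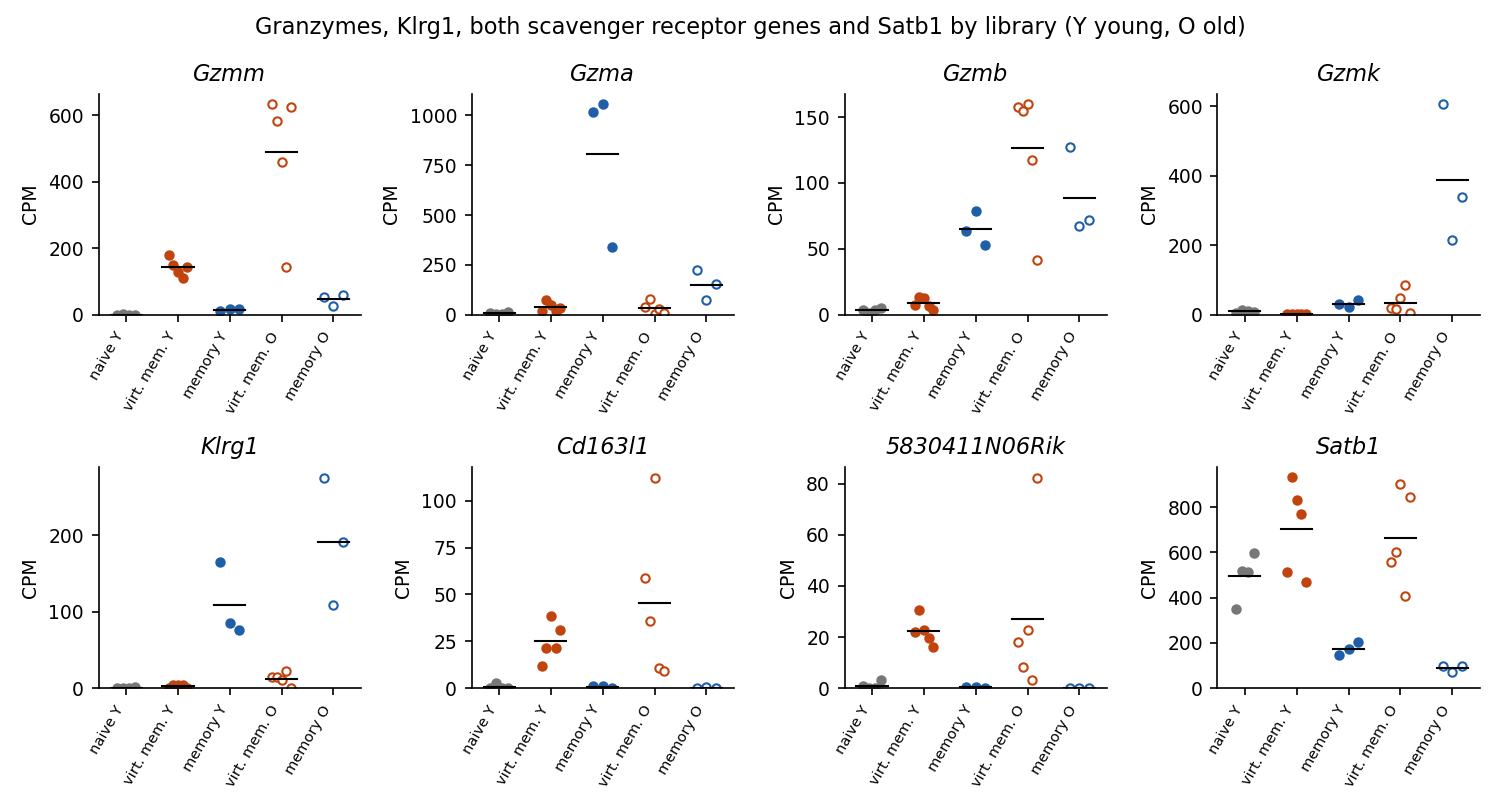
CPM in each library of 8 genes with different roles; filled points are young, open points old, and black lines are group means. Gzmm, Cd163l1, 5830411N06Rik and Satb1 are higher in virtual memory than in memory libraries at both ages, Gzmk and Klrg1 are higher in memory libraries at both ages, and Gzmb separates the sorts in young mice only.

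Of 21 NK cell receptor genes, 12 were lower and 3 higher in virtual memory libraries (median -1.59). NK cell marker sums were lower in the same libraries. The marker list shares Ncr1, Klrb1c, Fcer1g and Tyrobp with this list, so the sums are not separate from it. Klrg1, an inhibitory receptor of terminal effector T cells and NK cells, was 0.479, 3.74, 4.12, 3.67 and 0.473 CPM against 166, 85.4 and 76.1 CPM (-5.64 ± 0.48, adjusted p = 3.62e-07). In old mice NK cell sums overlapped (213 to 600 CPM in virtual memory and 269 to 523 CPM in memory libraries), and Klrg1 was still 0 to 23.1 CPM against 109 to 276 CPM (-3.94, adjusted p = 0.00405). Ncr1, which encodes the NK receptor NKp46, was 0 to 1.89 CPM against 31.3 to 70.3 CPM in young mice (-5.81 ± 0.45, adjusted p = 1.33e-07) and too low to be tested in old mice. Fcer1g, a signalling adaptor of NK and myeloid cells, was 78.7 to 85.9 CPM against 565 to 1246 CPM (-3.42 ± 0.22). It is a large part of the NK cell marker sums of young memory libraries (1092 to 2514 CPM). Hcst, which encodes the NKG2D adaptor DAP10, was 1.66 ± 0.18 higher (adjusted p = 4.23e-06), and Cd226, an activating adhesion receptor, 0.97 ± 0.23 higher (adjusted p = 0.00407) and 1.48 higher in old mice (adjusted p = 0.00414). On the T cell scale these last 2 were -0.10 and -0.73 in young mice.

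Inhibitory receptors and exhaustion genes were lower in 8 of 16 cases and higher in 3 (median -1.14). On the T cell scale none was higher and 13 were lower, beside 86.1% lower over all genes. Pdcd1, which encodes PD-1, was 0.319 to 2.99 CPM against 14.1 to 17.9 CPM (-3.60 ± 0.55, adjusted p = 0.000114), and Havcr2, which encodes TIM-3 and is also found on dendritic cells, was 0 to 2.74 CPM against 21.1 to 36.3 CPM (-5.63 ± 0.74, adjusted p = 2.73e-05). In old mice both missed the test at -3.25 (adjusted p = 0.0539) and -3.34 (adjusted p = 0.0561). Cd5, whose level follows the strength of self recognition, was 108 to 214 CPM against 33.0 to 68.5 CPM (1.49 ± 0.29, adjusted p = 0.000883; -0.20 on the T cell scale). Nt5e, which encodes the ectonucleotidase CD73, was 1.45 ± 0.31 higher (adjusted p = 0.00185; -0.28 on the T cell scale).

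Of 18 integrins and adhesion receptors, 8 were lower and 4 higher (median -0.54). Besides Itga4, Itgam and Itgax, the CD11b and CD11c chains that myeloid and NK cells also carry, were -2.25 ± 0.29 and -3.30 ± 0.56, and Itgal, the LFA-1 chain, was 104 to 165 CPM against 244 to 310 CPM (-0.98 ± 0.19, adjusted p = 0.000748). Of 10 tissue residency genes, 6 were lower and 2, Cd69 and Cxcr6, were higher (median -1.58). Over all genes 17.2% were lower and 13.1% higher. On the T cell scale 0 were higher and 7 lower, beside 86.1% lower over all genes. Litaf, which encodes a lysosomal membrane protein, was -2.85 ± 0.30 (adjusted p = 3.02e-06) and -1.78 in old mice (adjusted p = 0.0281). Of 6 chemokine genes, 4 were lower and none higher (median -1.95). Ccl5, the chemokine that memory CD8 T cells store as transcript, was 1890 to 4016 CPM against 4331 to 5012 CPM (-0.66 ± 0.20, adjusted p = 0.0218) and 424 to 475 CPM in young naive libraries. That call was lost without virtual memory replicate 3 or memory replicate 2 or 4 (adjusted p up to 0.0695). Among 7 Ly6 family genes, Ly6c2 was the 1 that was higher and 3 were lower, Ly6a (Sca-1) by -1.48 ± 0.23 (adjusted p = 0.000148).

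The T cell receptor complex and co-receptor signalling list was higher in 16 of 22 cases and lower in 1 (median 0.97). On the T cell scale none was higher and 13 were lower, beside 86.1% lower over all genes. The list includes Cd3d, Cd3e, Cd3g, Cd8a and Cd8b1, whose summed counts set that scale. Their differences on it are held near 0 by construction. The gene that was lower, Tnfrsf4, encodes the costimulatory receptor OX40 of activated and regulatory T cells and was -3.30 ± 0.48 (adjusted p = 6.70e-05). CD4 and regulatory T cell marker sums were 38.6 to 74.0 and 32.2 to 43.7 CPM in memory libraries against 5.68 to 11.2 and 4.73 to 16.5 CPM in virtual memory libraries.

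Proliferation genes were lower in 30 of 32 cases and higher in none (median -2.89). Mki67, which encodes the proliferation marker Ki-67, was 11.3, 17.97, 23.8, 20.2 and 20.3 CPM in virtual memory replicates and 241, 423 and 690 CPM in memory replicates (-4.60 ± 0.31, adjusted p = 3.50e-08). In old mice 3 of 32 were lower, and Mki67 was 18.2 to 110 CPM against 57.9 to 255 CPM (-1.42, adjusted p = 0.189). The gap between ages was 3.16 (interaction adjusted p = 0.0344). The young libraries with most Mki67 were those with most erythroid transcript: Hbb-bs, an adult beta globin, was 11281, 19782 and 22660 CPM in memory replicates 2, 3 and 4. Which cells carried the proliferation transcripts was not tested.

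**Figure D4:**
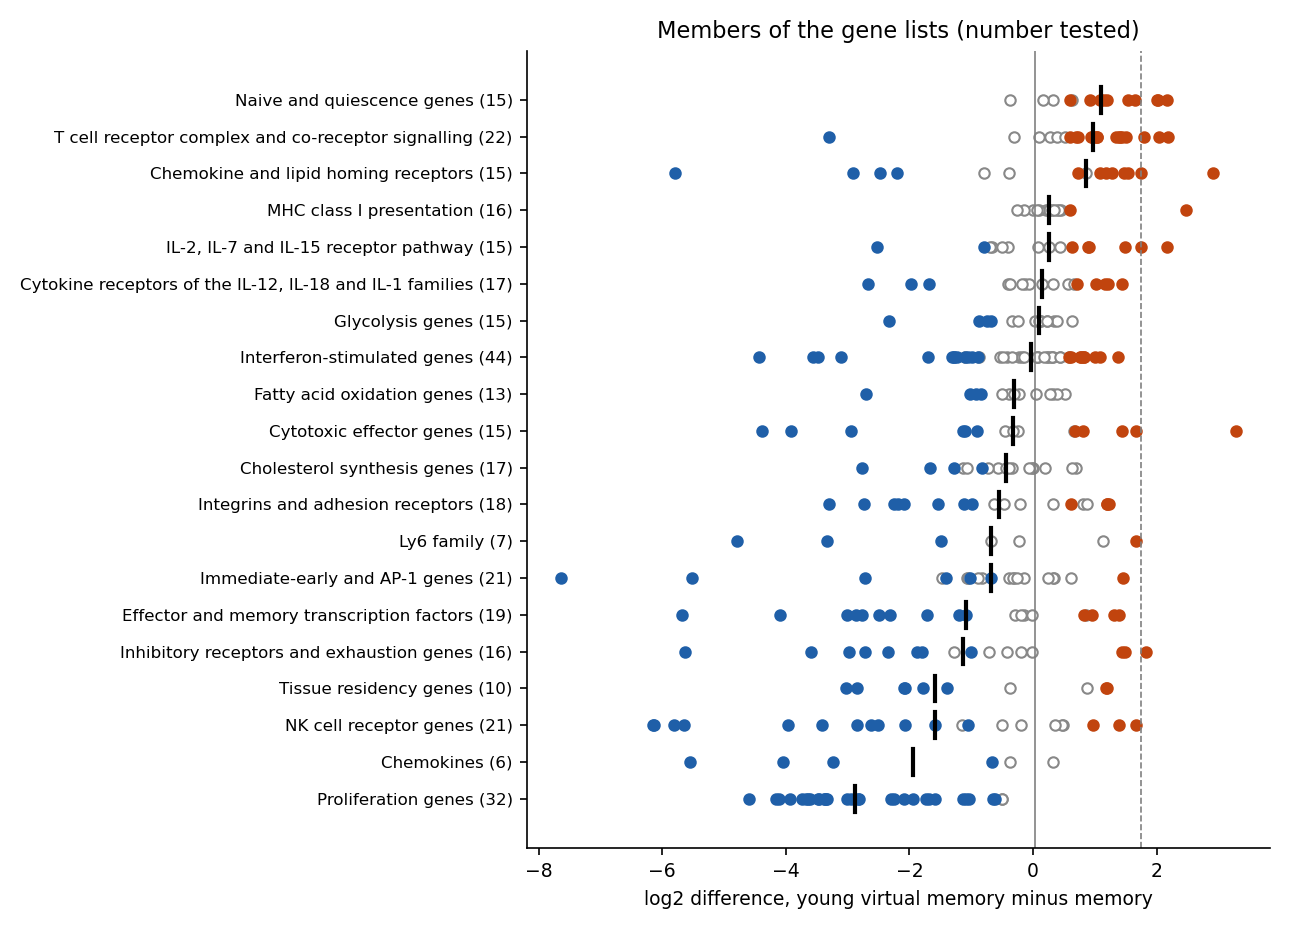
Each point is a gene of 20 fixed lists at its log2 difference in young mice; orange points are higher and blue points lower at an adjusted p under 0.05, open points did not pass, and black bars are list medians. The solid line is the median of all genes tested (0.02) and the dashed line marks 1.75, the size of the shift under T cell scaling, which Gzmm exceeds by the widest margin.

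Of the 15 genes highest in virtual memory libraries, at least 8 are neutrophil genes: Retnlg (6.37 ± 0.36), Mmp9, Ly6g, S100a9, S100a8, Ltf, Mmp8 and Cxcr2. Ly6g, the surface marker of mouse neutrophils, was 32.7, 39.7, 31.1, 33.0 and 29.8 CPM against 2.34, 1.35 and 0.746 CPM. Lrg1 (4.58), Chil1 (3.77), Sec14l4 (3.58), Il1f9 (3.49) and Wfdc21 (3.27) made up the rest with Cd163l1 and Gzmm. In old memory replicates 1, 2 and 3, Lrg1 was 2.18, 52.9 and 14.2 CPM and Chil1 0.435, 26.2 and 3.55 CPM. Wfdc21 was 8.27, 307 and 33.1 CPM there, and all 3 genes were highest in replicate 2, as was the neutrophil sum. The part of neutrophils in these genes was not tested. Of the 15 lowest, Cd209d, Clec9a, Siglech and Flt3 are dendritic cell or myeloid genes, Clec4a1 encodes a lectin of myeloid cells, and Klf1 (-8.19 ± 0.41), Rhd (-7.80) and Cldn13 (-7.70) belong to red cell precursors. Cd209d and Clec9a had no count in 5 virtual memory libraries and were at least 183-fold and 104-fold lower there, taking 3 counts over the group as the floor. The remaining 7 were Skint3, Tspan8, Sowaha, Rab3il1, Sh2d1b1, Slc8a1 and Pdzk1ip1, at most 0.457 CPM in any virtual memory library.

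Old and young mice share no libraries, so the old contrast repeats the comparison in other animals. Of 10541 genes tested at both ages, 346 passed at both with the same direction, 130 higher and 216 lower, which is 11.3% of the 3051 young calls and 77.8% of the 445 old calls among them; 355 passed at both in either direction. Across genes, which are not independent replicates, the young and old differences had a Pearson correlation of 0.69 and a Spearman correlation of 0.56. The difference between ages was tested with an interaction term: 261 of 12330 genes (2.12%) passed, 207 (1.68%) with a higher and 54 (0.438%) with a lower difference in old mice. That count was 641 without both old libraries high in immunoglobulin, and it ran from 52 (without old memory replicate 3) to 737 (without old memory replicate 2) as single libraries were left out.

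S1pr5, the receptor by which NK cells and terminal effector T cells leave tissues, reversed between ages. It was 9.10, 6.74, 2.29, 8.08 and 2.36 CPM in young virtual memory and 29.3, 45.7 and 25.4 CPM in young memory replicates (-2.47 ± 0.42, adjusted p = 0.000326). In old mice it was 126, 231, 106, 29.2 and 153 CPM against 14.4, 19.9 and 18.3 CPM (2.89, adjusted p = 0.0120). The gap was 5.30 (interaction adjusted p = 0.000793). Itga1, the collagen-binding integrin chain CD49a, did likewise: 2.94 to 5.59 CPM against 11.4 to 28.4 CPM in young mice (-2.09) and 35.8 to 80.2 CPM against 16.5 to 22.5 CPM in old mice (1.60, adjusted p = 0.00992), a gap of 3.65 (interaction adjusted p = 0.000552). Ccr2, a receptor for inflammatory chemokines, was 17.6 to 80.9 CPM against 153 to 364 CPM in young mice (-2.20) and 0.93 in old mice (adjusted p = 0.184), with a gap of 3.10 (interaction adjusted p = 0.0119). Styk1, a kinase-like gene of NK cells, also turned, with 1.42 to 4.57 CPM against 5.22 to 16.8 CPM in young mice and 4.77 to 74.8 CPM against 0.591 to 2.61 CPM in old mice (gap 6.25, interaction adjusted p = 0.00825).

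Id3, a repressor that T cells lose as they differentiate, turned the other way by library scaling. It was 202, 130, 135, 74.9 and 119 CPM in young virtual memory replicates against 62.1, 63.9 and 55.2 CPM (1.14 ± 0.27, adjusted p = 0.00395), and 1.79 to 21.8 CPM against 25.6 to 63.5 CPM in old mice (-2.26, adjusted p = 0.0303). The gap was -3.45 (interaction adjusted p = 0.00715). Scaled to T cell transcripts, the young difference was -0.66 (adjusted p = 0.0475), below 0 like the old one. Trim30c had the lowest gap of the genes named by the rule (-5.98, interaction adjusted p = 0.0163), and its old memory replicates were far apart at 187, 4.55 and 465 CPM. Sowaha, Trim10, Sh2d1b1 and Rab3il1 had the highest gaps beside Styk1 (6.09 to 6.56), and each was near 0 in young virtual memory libraries. Myb, Cxcr5 and Rpl24 completed the lowest 5 (-2.87 to -2.53).

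Several old calls rested on single libraries. Gzmm, Ly6c2, Satb1, Dmrta1, Irf8, Klrg1, Gzmk, Cd226, Il18r1 and Itga1 passed in old mice whichever 1 library was left out, and so did the gaps between ages of S1pr5, Itga1, Gzmb, Zeb2, Styk1, Id3, Socs2 and Fcer1g. Without old memory replicate 3, Cd163l1 (adjusted p = 0.0568), Batf3 (0.0544) and Ceacam10 (0.0524) missed the test, as did S1pr5, Dhrs9 and Cstdc4 without old memory replicate 1 or 3 (up to 0.0647, 0.0595 and 0.103). The old call of 5830411N06Rik was lost without virtual memory replicate 1 or 3 or any memory replicate (up to 0.0956), and that of Id3 without virtual memory replicate 1, 2 or 3 or memory replicate 1 or 3 (up to 0.110). Il2rb, Klk8 and Litaf lost theirs without virtual memory replicate 1, 2, 3 or 5 or memory replicate 2 or 3 (up to 0.128, 0.110 and 0.107), and Lef1 without any library but virtual memory replicate 4 (up to 0.146). Cxcr2 lost its old call without virtual memory replicate 1, 2, 3 or 5 or memory replicate 3 (up to 0.136), Mmp8 and Trim30c without those or memory replicate 1 (up to 0.148 and 0.179), and Styk1 without virtual memory replicate 2 or 3 or any memory replicate (up to 0.148). The gap of Ccr2 was lost without old memory replicate 3 (0.0611), that of Trim30c without replicate 3 of young or old memory (up to 0.0654), and those of Cd3d, Cd3e, Hcst, Cx3cr1, Pdzk1ip1, Hbb-bs, Ncr1, Mki67, Sowaha, Trim10, Sh2d1b1, Rab3il1, Myb, Cxcr5 and Rpl24 under 4 to 12 of the 16 single-library omissions (adjusted p up to 0.278).

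**Figure D5:**
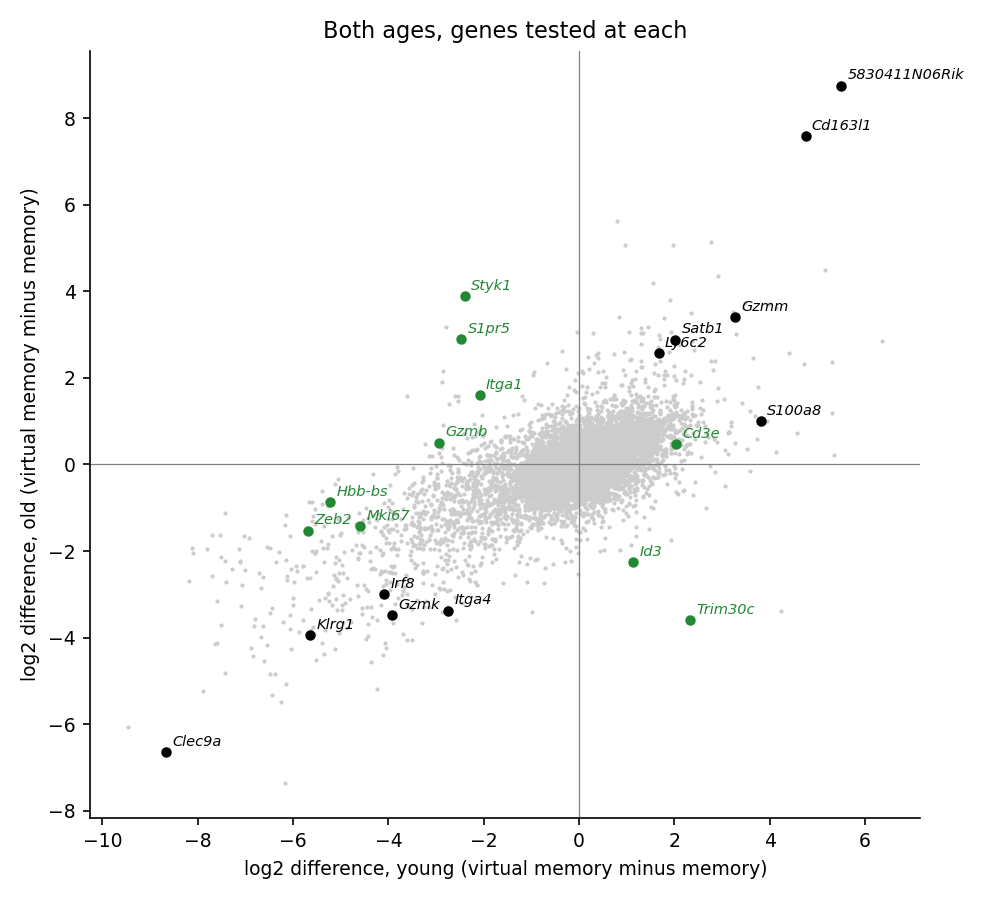
Log2 difference (virtual memory minus memory) in young mice on the x axis and old mice on the y axis for 10541 genes tested at both ages. Green names passed the interaction test and black ones did not; Itga4, Klrg1, Gzmk and Irf8 are lower and Gzmm, Satb1 and Ly6c2 higher at both ages, and S1pr5, Itga1 and Styk1 change direction.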

How the data were processed

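The deposited file is 1 table of counts per gene (55484 genes, 170 libraries) that the authors made from 3'-biased poly-A libraries with STAR and featureCounts 2.0.1 on GRCm38.p6 (mm10), per the submitters' processing notes. The labels' protocols describe molecular identifiers of 10 bases; the labels do not say whether reads were collapsed on them before counting. Every column was matched to a sample by its title. All 37 mitochondrial genes listed have 0 counts in the 8 young libraries.

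Genes were filtered by expression (minimum count 10, minimum total 15), libraries scaled by TMM, and contrasts tested with edgeR 4.0.16 (R 4.3.3), each fitted on its own libraries. The test was tried on counts simulated from the young contrast (10852 genes run, 88 changed 2-fold and 102 changed 4-fold). It recovered 33.0% of 2-fold and 89.2% of 4-fold changes, with a far smaller share of changed genes than was called in the data. CPM for display used TMM totals over 23 CD8 T cell libraries. Among them were 3 libraries labelled old naive, which held 430 to 670 CPM of Gzmk. Gene symbols were matched to GENCODE M21 (53322 of 55484). No replicate pair held identical counts, and the closest differed by more than sampling noise (chi-square per degree of freedom 5.99).

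Genes named: the 15 highest and 15 lowest differences that passed, among genes whose libraries did not overlap and whose higher group averaged 20 CPM or more, leaving out clone-named models, pseudogenes and receptor segments; up to 4 per list and direction by lowest p; 8 defining markers; and the 5 highest and 5 lowest interactions. Genes outside the rule, named after their values were seen, were Klrg1, Tbx21, Trdc, Hbb-bs, Cd3g and those marked in the text, and so were the age gaps of genes other than those 10. Some named genes are not reported here. Members and gene lists were chosen with earlier results of these data known. Alternatives were another size factor, no filter, DESeq2, a replicate block, all CD8 libraries, receptor segments left out and each library left out. Added after seeing the data were scaling to T cell transcripts and leaving out both old libraries high in immunoglobulin.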

Additional observations from a re-analysis of the deposited data

Results flagged for a closer look

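Of 143 groups of libraries examined, 27 had a library far from the others by Dixon's test, which chance gives in about 1 of 20 groups. That rate does not apply where every other library of the group is at 0, since any count is then flagged. The 27 include such groups. In young virtual memory libraries, replicate 1 stood apart in total counts (6821886), in the summed CD3 and CD8 transcripts (6482 CPM) and in Ctsw (341 CPM). It also held the only count of Skint3, of Flt3 and of Sh2d1b1 in its group (1 count or 0.160 CPM each). Replicate 3 stood apart in Sec14l4 (115 CPM), Cx3cr1 (10.1 CPM), Havcr2 (2.74 CPM) and Styk1 (4.57 CPM). It held the only counts of Batf3 (2 counts, 0.915 CPM), Tspan8 and Sowaha (1 count or 0.457 CPM each). Replicate 4 stood apart in Mmp8 (245 CPM) and was the lowest in Ly6a (27.9 CPM). It held the only count of Siglech, of Rab3il1 and of Slc8a1 (1 count or 0.367 CPM each). In old virtual memory libraries, replicate 4 was far above the other 4 in immunoglobulin counts (6.31%) and in marker sums of CD4 T cells (74.8 CPM), regulatory T cells (91.1 CPM), NK cells (600.4 CPM), plasma cells (2847 CPM), macrophages and monocytes (2265 CPM), neutrophils (15173 CPM) and erythroid cells (13013 CPM).

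The difference between virtual memory and memory libraries differed between ages, by the interaction test in edgeR, for 26 of the named genes, of which Sowaha, Sh2d1b1 and Ncr1 were too low to be tested in old mice alone. As log2 gaps (old minus young) these were 6.56 for Sowaha, 6.25 for Styk1, 6.24 for Trim10 and for Sh2d1b1, 6.09 for Rab3il1, 5.98 for Pdzk1ip1, 5.30 for S1pr5, 4.35 for Hbb-bs, 4.17 for Ncr1, 4.12 for Zeb2, 3.96 for Socs2, 3.65 for Itga1, 3.42 for Gzmb, 3.39 for Cx3cr1, 3.16 for Mki67, 3.10 for Ccr2 and 2.63 for Fcer1g. Lower gaps were -1.19 for Cd3d, -1.35 for Hcst, -1.59 for Eomes, -1.60 for Cd3e, -2.53 for Myb, -2.54 for Rpl24, -2.87 for Cxcr5, -3.45 for Id3 and -5.98 for Trim30c. The gaps of Styk1, S1pr5, Zeb2, Socs2, Itga1, Gzmb, Fcer1g and Id3 passed the test whichever 1 library was left out, and each of the others was lost under at least 1 such omission, as given in the report.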

How the results depend on the processing

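The young count of 3388 calls was 3375 with another size factor, 4412 without a filter, 3451 in DESeq2, 3975 with all CD8 libraries in the fit, 3313 without receptor segments and 2629 to 3308 with single libraries left out. Scaling to T cell transcripts took it to 9678. The old count of 484 was 488 with another size factor, 1333 without a filter, 880 in DESeq2, 1411 with all CD8 libraries, 250 scaled to T cell transcripts, 812 without both libraries high in immunoglobulin and 168 to 1149 with single libraries left out. The count of age differences, 261, was 270, 856 and 534 under the first 3 of these, 5107 scaled to T cell transcripts, 641 without both libraries and 52 to 737 with single libraries left out. The cause was not tested.

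Scaled to T cell transcripts, 25 young differences changed sign: Cd3d (-0.28), Cd3g (-0.27), Cd8a (-0.28), Il2rb (-0.80), Eomes (-0.85), Cxcr3 (-0.44), Ly6c2 (-0.17), Bcl2 (-0.043), Socs1 (-0.26), Gata3 (-0.49), Runx3 (-0.36), Tbx21 (-0.85), Cst7 (-0.065), Ctsw (-0.34), Nkg7 (-0.94), S1pr1 (-0.13), Hcst (-0.10), Cd226 (-0.73), Cd5 (-0.20), Nt5e (-0.28), Ifi208 (-0.31), Il18r1 (-0.29), Id3 (-0.66), Cxcr5 (-0.94) and Myb (-1.28). By its construction this scale lowers every young difference by about the same amount. Cd69 and Cxcr6 were not among the genes checked for a change of sign. On it the old differences of Cd3d (-0.085), Cd8a (-0.17), Cxcr3 (-0.029) and Hcst (-0.011) and the gaps of Cd3d (0.19) and Hcst (0.084) also changed sign. Without old memory replicate 2, Cd8a (-0.019) and Cd44 (0.086) changed sign in old mice, where single omissions gave -0.019 to 0.44 and -0.27 to 0.086, and without both libraries high in immunoglobulin, Cd44 (0.056) and Cxcr3 (-0.014) did; the cause was not tested.

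The labels do not say whether replicate numbers shared by the sorts mark shared animals. Correlations of same-numbered deviations from the group means were -0.08, 0.04 and -0.13 in young and 0.11, -0.16 and 0.12 in old mice. So few pairs cannot decide whether same-numbered libraries came from the same animals. With the replicate number as a block, the counts were 2428 (young), 580 (old) and 53 (age differences). Simulated 2-fold changes were recovered in 33.0% of cases, with 88 genes changed 2-fold and 102 genes 4-fold among 10852. The adjusted p depends on the share of changed genes, and 30.3% of genes passed in the data. Recovery at that share was not measured and depth was not varied, so small differences can go undetected at an unknown rate.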

Other observations

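The calls among metabolic genes were all lower in young virtual memory libraries, beside 17.2% lower and 13.1% higher over all genes tested. Of 15 glycolysis genes 4 were lower and 0 higher (median 0.10), of 13 fatty acid oxidation genes 4 were lower (median -0.32), and of 17 cholesterol synthesis and uptake genes 4 were lower (median -0.44). Hk2, the inducible hexokinase that starts glycolysis, was 11.8 to 19.5 CPM against 70.9 to 90.1 CPM (-2.33 ± 0.23, adjusted p = 1.85e-06). Acsl1, which activates fatty acids and is abundant in macrophages, was 1.497 to 7.71 CPM against 18.1 to 48.4 CPM (-2.71 ± 0.41).

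Interferon-stimulated genes split, with 9 of 44 higher and 13 lower (median -0.04). On the T cell scale 0 were higher and 42 lower, beside 86.1% lower over all genes. Rsad2, the antiviral protein viperin, was 16.5 to 22.2 CPM against 104 to 335 CPM (-3.56 ± 0.30, adjusted p = 2.66e-07), while Ifi208, of the interferon-inducible p200 family, was 92.2 to 125 CPM against 30.3 to 62.7 CPM (1.38 ± 0.25, adjusted p = 0.000482). In old mice no gene of this list passed the test among 41. Of 16 genes of MHC class I presentation, 2 were higher and 0 lower (median 0.26). Immediate-early and AP-1 genes were lower in 6 of 21 cases and higher in 1 (median -0.68). Batf3, the AP-1 factor of cross-presenting dendritic cells that memory CD8 T cells also use, was 0 to 0.915 CPM against 29.6 to 49.8 CPM (-7.63 ± 0.64) and -4.16 in old mice (adjusted p = 0.00992, and 0.0544 without old memory replicate 3), beside the dendritic cell sums given in the report, whose part was not tested. Summed AP-1 list levels varied widely within each group, from 2034 to 7237 CPM in virtual memory and from 2391 to 6713 CPM in memory libraries.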
